A study of Mus musculus with 4 samples.

Results

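Ephrins and Eph receptors were described in endothelial cells sorted from mouse hearts, over 10 genes chosen by name: the ephrin ligands Efna1, Efna5, Efnb1 and Efnb2 and the Eph receptors Epha2, Epha4, Ephb1, Ephb2, Ephb3 and Ephb4. All 10 were found by symbol among the 24346 genes of the deposited table. The choice was made by gene family, with the p53 target Epha2 and the artery-vein pair Efnb2 and Ephb4 among them. The mutant group is labelled ECp53KO, which the labels do not spell out and which is taken, from the series title, to mean that endothelial cells lack p53 (2 libraries, ECp53KO_170 and ECp53KO_172). The controls are labelled Ctrl and wild type (2 libraries, Ctrl_178 and Ctrl_182). Both groups are labelled young, on a C57BL/6 background, and freshly isolated from heart. The promoter that drives the deletion, the exons deleted and the ages in weeks are not stated in the labels. No label ties a library to an animal of its own, so p-values measure only the spread between these libraries.

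Eph receptors are the largest family of receptor tyrosine kinases, and their ligands, the ephrins, are also bound to the cell surface, so that signalling needs contact between cells and can run into both of them. Ephrin-A ligands are held by a lipid anchor and bind mainly EphA receptors, while ephrin-B ligands cross the membrane and bind mainly EphB receptors and EphA4. In developing vessels ephrin-B2 marks arteries and EphB4 marks veins, and the contact between them helps to keep both apart. EPHA2 is described in human cells as a transcriptional target of p53.

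Heart endothelial cells held high levels of a few members and almost none of the others. In FPKM, a level scaled by transcript length and depth that can be compared between genes, the order of the means over 4 libraries was Ephb4 (132), Efna1 (125), Efnb1 (103), Efnb2 (70.0), Epha2 (29.8), Epha4 (15.4) and Ephb1 (7.86). None of the 7 differed between ECp53KO and Ctrl past the test: 0 were called lower and 0 higher at an adjusted p under 0.05 by limma, and 0 had an unadjusted p under 0.05. Over all 11332 genes tested, 13 were called, or 0.115% (0.0882% lower and 0.0265% higher), so a count of 0 among 7 is near the background. In these bulk samples fewer cells of a type and less RNA per cell cannot be told apart.

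**Figure D1:**
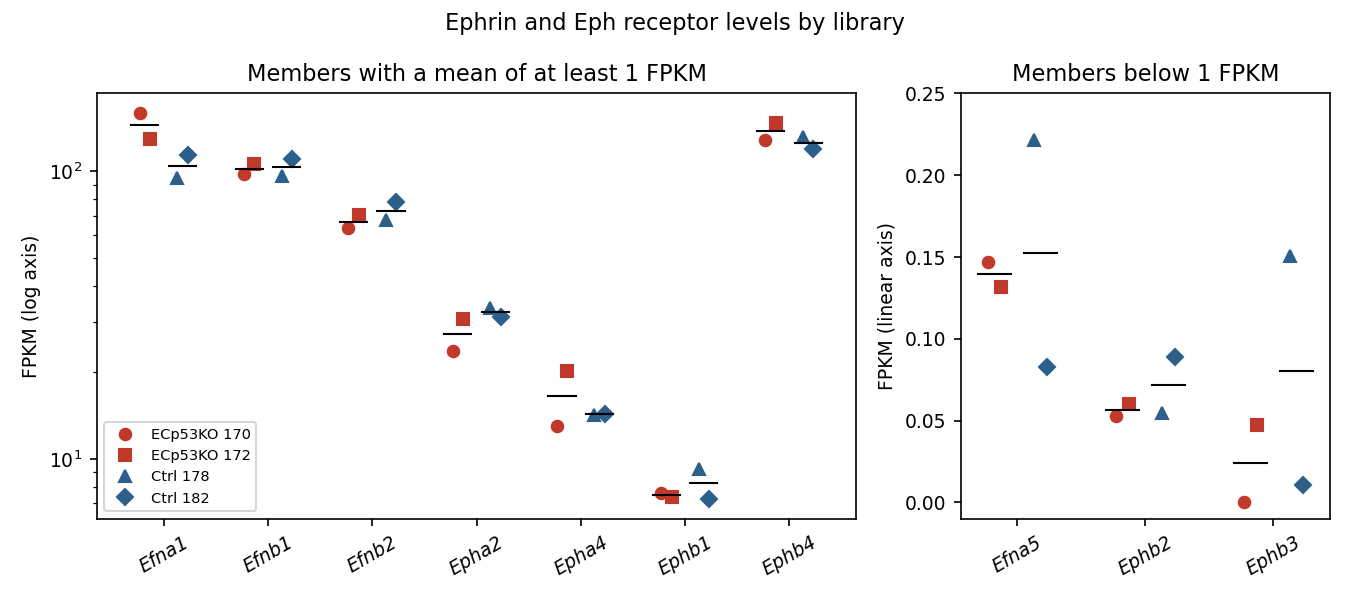
FPKM of the 10 members in each library, on a log axis for the 7 members with a mean of at least 1 FPKM (left) and on a linear axis for the other members (right). Red points are the 2 ECp53KO libraries, blue points the 2 Ctrl libraries, and black bars group means; Efna1 and Epha2 are the members on the left whose groups do not overlap.

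Depth was estimated at 11400000 and 9800000 fragments in the ECp53KO libraries and 11000000 and 22700000 in the Ctrl libraries. Markers of endothelial cells, the labelled cell type, were the most abundant of those read and summed to 5888 and 5362 FPKM in ECp53KO, against 5260 and 5225 FPKM in Ctrl, over 10 genes, with Cdh5 at 982 and 958 against 1098 and 1022 FPKM. Markers of other lineages summed to lower levels. Cardiomyocyte markers summed to 397 and 250.2 against 244 and 220.2 FPKM, pericyte and smooth muscle markers to 185 and 149 against 98.7 and 118 FPKM, and fibroblast markers to 33.5 and 31.0 against 35.0 and 33.6 FPKM. Leukocyte markers summed to 8.57 and 10.2 against 14.85 and 9.20 FPKM, with the T cell gene Cd3e listed at 0 throughout. Schwann and neuronal markers summed to 16.9 and 18.2 against 28.7 and 24.2 FPKM, nearly all of it from Uchl1 (16.66 and 17.65 against 28.05 and 23.72 FPKM). Uchl1 was the only gene of that list to reach a mean of 1 FPKM, and Sox10 was listed at 0. Lymphatic markers summed to 32.5 and 46.5 against 51.7 and 40.5 FPKM, most of it from Flt4 (29.7 and 42.75 against 47.5 and 34.5 FPKM). Lyve1 was at 2.404 and 2.997 against 3.845 and 5.444 FPKM, while Prox1 and Pdpn ranged from 0.0828 to 0.400 FPKM over the libraries. Endocardial markers summed to 34.5 and 54.1 against 57.3 and 59.2 FPKM. Erythroid markers summed to 456 and 95.7 against 64.5 and 37.4 FPKM. Trp53 itself, the check of the labels, was at 4.41 and 2.45 FPKM in ECp53KO, against 52.1 and 28.8 FPKM in Ctrl (limma adjusted p = 0.146). It passed with robust shrinkage (limma adjusted p = 0.0412) and without small RNA loci (0.0127). It did not pass with a pseudocount of 0.1 (limma adjusted p = 0.0877), no filter (0.620), rescaling to TPM (0.0710) or the length trend removed (0.181). On leaving out a library its log2 fold change was -3.62 to -2.79.

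Among the ligands Efna1 encodes ephrin-A1, an ephrin that endothelial cells make in response to inflammatory cytokines and a main ligand of EphA2. It lies on chromosome 3 (89271730 to 89280951, GRCm38) on the minus strand. Efna1 measured 160.0 and 129.6 FPKM in the libraries ECp53KO_170 and ECp53KO_172, against 94.9 and 114 FPKM in Ctrl_178 and Ctrl_182. Both ECp53KO libraries were above both controls, and ECp53KO_170 was the highest of the 4. The means were 145 ± 21.5 FPKM in ECp53KO and 105 ± 13.7 FPKM in Ctrl (SD, n = 2 each). The log2 fold change was 0.46 ± 0.20 (SE), with a 95% interval of -0.04 to 0.97. This was the member with the largest difference, and it did not pass (limma adjusted p = 0.864, unadjusted p = 0.0654). Of all tested genes, 88.55% had a smaller absolute fold change. Without ECp53KO_170 the log2 fold change was 0.31, and without ECp53KO_172 it was 0.61. With each library's trend with transcript length removed, it was 0.37. All 9 tested pericyte and smooth muscle markers, all 6 tested erythroid markers and 7 of 8 tested cardiomyocyte markers had a positive fold change too (median log2 fold changes of 0.38, 1.88 and 0.40). Other markers were mostly negative, with 5 of 7 tested fibroblast, 3 of 4 leukocyte, 4 of 5 endocardial and 2 of 2 lymphatic ones. The 1 tested Schwann and neuronal marker was negative, as were 4 of 10 endothelial ones. The part of any of these cell types in the Efna1 difference was not tested.

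Because Efna1 showed the largest difference, the window before its annotated start is shown, 250 bases before to 50 after, from RefSeq on GRCm38.p6, 5′ to 3′ on the strand of the gene. Capitals here and in the promoters below mark the GC box, GGGCGG or its complement CCGCCC, a motif searched on both strands that 35.7% of 32851 promoter windows of this length hold.
Efna1 promoter, chr3:89280902-89281201, minus strand: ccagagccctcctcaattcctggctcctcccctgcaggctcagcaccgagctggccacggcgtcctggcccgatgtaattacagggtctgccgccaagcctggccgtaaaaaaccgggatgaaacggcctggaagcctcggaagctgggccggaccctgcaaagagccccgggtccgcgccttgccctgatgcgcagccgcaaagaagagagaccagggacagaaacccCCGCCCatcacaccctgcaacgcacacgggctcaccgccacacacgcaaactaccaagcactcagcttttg
The window holds 1 GC box and 20 CG dinucleotides. RefSeq gives Efna1 a further start, whose window of the same length runs from 89279596 to 89279895 and holds 2 GC boxes.

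Efna5, which encodes ephrin-A5, a ligand best known from axon guidance, was near the limit of detection. It lies on chromosome 17 (62602957 to 62881317). Its level was 0.147 and 0.132 FPKM in ECp53KO, against 0.222 and 0.083 FPKM in Ctrl. The Ctrl libraries lay on either side of the ECp53KO libraries. On its longest transcript these values stand for about 6.8 and 5.2 fragments in ECp53KO and 9.8 and 7.6 in Ctrl, and it was below the minimum mean of 1 FPKM for the test. Ephrin-A1 thus accounted for nearly the whole ephrin-A class in every library.

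Efnb1 and Efnb2 encode the transmembrane ligands ephrin-B1 and ephrin-B2, which can signal backwards into the cell that carries them. Efnb1, on chromosome X (99136061 to 99149022), stood at 97.9 and 106 FPKM in ECp53KO, against 96.2 and 111 FPKM in Ctrl. The ECp53KO values lay between the Ctrl values, and the log2 fold change was -0.02 ± 0.17 (SE), with a 95% interval of -0.44 to 0.41 (limma adjusted p = 0.987). In linear terms that interval runs from 0.737 to 1.33 times the Ctrl level.

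Efnb2, the arterial ligand, lies on chromosome 8 (8617235 to 8661242). It stood at 63.4 and 70.4 FPKM in ECp53KO, against 68.0 and 78.1 FPKM in Ctrl. The groups overlapped, since ECp53KO_172 was above Ctrl_178. The means were 66.9 ± 4.98 FPKM in ECp53KO and 73.0 ± 7.13 FPKM in Ctrl (SD, n = 2 each), with a log2 fold change of -0.12 ± 0.16 (SE) and a 95% interval of -0.54 to 0.29 (limma adjusted p = 0.900). Efnb1 was above Efnb2 in all 4 libraries, and their ranges did not overlap.

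Among the receptors Epha2 encodes EphA2, the main receptor of ephrin-A1, and lies on chromosome 4 (141301221 to 141329384). Epha2 measured 23.7 and 30.7 FPKM in the libraries ECp53KO_170 and ECp53KO_172, against 33.5 and 31.2 FPKM in Ctrl_178 and Ctrl_182. Both ECp53KO libraries were below both controls, ECp53KO_172 by less than 1 FPKM. The means were 27.2 ± 4.88 FPKM in ECp53KO and 32.3 ± 1.60 FPKM in Ctrl (SD, n = 2 each). The log2 fold change was -0.25 ± 0.18 (SE), with a 95% interval of -0.71 to 0.21, and it did not pass (limma adjusted p = 0.864, unadjusted p = 0.221). Without ECp53KO_170 it was -0.07, and without ECp53KO_172 it was -0.43. Epha2 and Efna1 were the members without overlap, 1 lower and 1 higher among 7 tested, where 16.8% of all tested genes were lower and 19.1% higher in this way.

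The Epha2 promoter is shown because the gene is described as a p53 target.
Epha2 promoter, chr4:141300971-141301270, plus strand: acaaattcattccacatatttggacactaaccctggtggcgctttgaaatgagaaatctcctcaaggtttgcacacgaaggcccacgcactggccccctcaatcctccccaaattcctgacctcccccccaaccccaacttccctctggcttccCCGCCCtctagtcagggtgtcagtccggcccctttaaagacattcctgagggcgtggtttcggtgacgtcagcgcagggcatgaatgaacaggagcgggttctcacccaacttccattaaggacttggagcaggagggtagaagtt
The p53 binding decamer, searched on both strands, had no match in this window or in any of the 11 windows that RefSeq gives for the 10 members, and 8.36% of all promoter windows hold a match. These letters are then not within these windows, and other positions were not searched.

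Of the other p53 targets, 22 genes listed without Epha2, 20 had a negative fold change. By limma 0 passed over all genes, at an unadjusted p under 0.05 11 were lower and 0 were higher (2.82% of all tested genes were lower at that level), and 14 were below the range of the controls in both ECp53KO libraries (16.8% of all tested genes were). Their median log2 fold change was -0.56, against 0.01 over all tested genes. Earlier results on these libraries showed the same direction, so this is not independent evidence. Phlda3, an inhibitor of AKT signalling, stood at 8.96 and 8.66 FPKM in ECp53KO, against 58.8 and 37.2 FPKM in Ctrl. Eda2r, a death receptor that binds ectodysplasin A2, stood at 3.66 and 2.57 against 15.5 and 13.9 FPKM. Cdkn1a, which encodes the cell cycle inhibitor p21, stood at 353 and 387 against 528 and 668 FPKM, with a log2 change of -0.68 ± 0.23 (SE). The 95% intervals of Phlda3 (-2.91 to -1.66) and Eda2r (-2.46 to -1.42) lie below that of Epha2, while that of Cdkn1a (-1.27 to -0.10) overlaps it. The list's median also lies within the interval of Epha2. Phlda3 and Eda2r were named for having the smallest limma p of the list.

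Epha4 encodes EphA4, a receptor that binds ligands of both classes, and lies on chromosome 1 (77367182 to 77515107). It stood at 13.0 and 20.2 FPKM in ECp53KO, against 14.2 and 14.4 FPKM in Ctrl. ECp53KO_170 was the lowest and ECp53KO_172 the highest of the 4 libraries. The log2 fold change was 0.17 ± 0.24 (SE; limma adjusted p = 0.903), and its sign depended on ECp53KO_172, since it was -0.13 without that library and 0.47 without ECp53KO_170. The spread within ECp53KO was thus wider than the distance between the group means, 16.6 ± 5.10 FPKM in ECp53KO and 14.3 ± 0.117 FPKM in Ctrl (SD, n = 2 each).

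**Figure D2:**
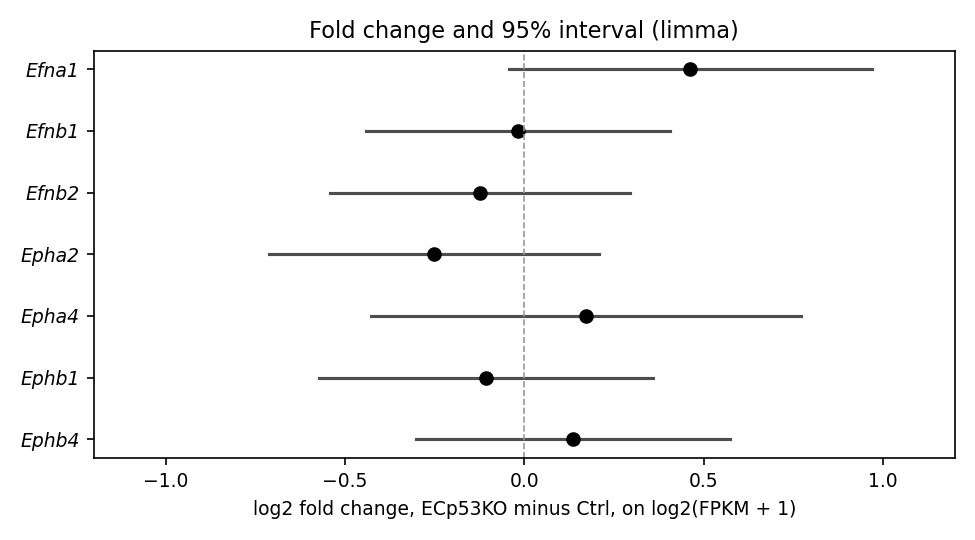
Log2 fold change of each tested member, ECp53KO minus Ctrl, on log2(FPKM + 1), with points for limma's estimate and lines for its 95% interval. Every interval crosses 0; that of Efna1 (-0.04 to 0.97) comes nearest to excluding it.

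The EphB receptors were dominated by Ephb4. Ephb4 encodes EphB4, the venous receptor of ephrin-B2, and lies on chromosome 5 (137350109 to 137374522). It stood at 129 and 147 FPKM in ECp53KO, against 131 and 119.7 FPKM in Ctrl. ECp53KO_170 lay between the controls and ECp53KO_172 above them. The means were 138 ± 13.2 FPKM in ECp53KO and 126 ± 8.24 FPKM in Ctrl (SD, n = 2 each), with a log2 fold change of 0.14 ± 0.17 (SE) and a 95% interval of -0.30 to 0.57 (limma adjusted p = 0.896). Of all tested genes 93.9% had a lower mean level. Its GENCODE M21 span meets the 3′ end of Zan on the opposite strand, and Zan was listed at 0 in all 4 libraries.

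Ephb1 encodes EphB1, which binds ephrin-B ligands, and lies on chromosome 9 (101922128 to 102354693). It stood at 7.64 and 7.38 FPKM in ECp53KO, against 9.19 and 7.23 FPKM in Ctrl. The ECp53KO values were between the controls, and the log2 fold change was -0.11 ± 0.18 (SE; limma adjusted p = 0.922). Without Ctrl_178 the sign turned, to 0.05. GENCODE M21 places the protein-coding gene 9630041A04Rik over one end of Ephb1 on the opposite strand, and these libraries keep no strand, so reads of both could not be told apart there.

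Ephb2 and Ephb3, receptors of ephrin-B ligands known for sorting cells in the intestinal crypt, were close to 0. Ephb2, on chromosome 4 (136647536 to 136836326), was at 0.0525 and 0.0603 FPKM in ECp53KO, against 0.0547 and 0.0888 FPKM in Ctrl, about 6.6 and 6.4 fragments against 6.6 and 21.9. Ephb3, on chromosome 16 (21204620 to 21223309), was listed at 0 in ECp53KO_170 and at 0.0475 FPKM in ECp53KO_172, against 0.151 and 0.0105 FPKM in Ctrl, the last being about 1.1 fragments. At this depth no difference could be detected in either gene. With no filter on low values, a fit that tests all 10 members, Ephb2, Ephb3 and Efna5 had limma adjusted p-values of 0.9305, 0.867 and 0.973.

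The artery-vein pair was read as 1 value per library, the log2(FPKM + 1) of Efnb2 minus that of Ephb4. This was -1.01 and -1.06 in ECp53KO, against -0.94 and -0.61 in Ctrl. Both ECp53KO libraries were lower than both controls, ECp53KO_170 by little against Ctrl_178. The difference between group means was -0.26, with an exact permutation p of 0.333, the smallest that 2 against 2 libraries allow (two-sided). It was -0.42 without Ctrl_178 and -0.09 without Ctrl_182. As a ratio of FPKM, Efnb2 over Ephb4 was 0.492 and 0.477 in ECp53KO, against 0.518 and 0.652 in Ctrl, so that the receptor transcript was the more abundant of the pair in all 4 libraries. Every other member ratio that was computed also separated the groups. These were Efna1 over Epha2, Efnb1 over Efnb2, Epha2 over Epha4 and Ephb4 over Ephb1. The separation is thus not particular to the artery-vein pair.

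The promoters of the pair are set side by side because the pair is the artery-vein readout of the family.
Efnb2 promoter, chr8:8661193-8661492, minus strand: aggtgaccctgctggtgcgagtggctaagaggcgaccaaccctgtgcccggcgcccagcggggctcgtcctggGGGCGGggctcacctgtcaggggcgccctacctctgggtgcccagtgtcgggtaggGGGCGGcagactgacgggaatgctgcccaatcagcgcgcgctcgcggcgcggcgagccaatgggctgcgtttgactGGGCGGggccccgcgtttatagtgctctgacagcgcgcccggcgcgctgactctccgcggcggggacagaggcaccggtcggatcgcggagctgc
Ephb4 promoter, chr5:137349859-137350158, plus strand: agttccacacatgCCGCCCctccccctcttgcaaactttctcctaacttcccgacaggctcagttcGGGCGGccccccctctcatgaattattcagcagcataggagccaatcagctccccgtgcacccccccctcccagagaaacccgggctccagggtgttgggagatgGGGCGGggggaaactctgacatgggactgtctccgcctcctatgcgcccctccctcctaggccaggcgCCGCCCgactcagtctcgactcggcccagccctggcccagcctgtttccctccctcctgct
The Efnb2 window holds 3 GC boxes and 35 CG dinucleotides, with 72.3% G and C, and the Ephb4 window 4 GC boxes and 14 CG dinucleotides, with 64.7%. The TATA and RBPJ motifs were also searched on both strands, here and in all windows. The TATA motif TATAAA had 1 match in the Efnb2 window, on the opposite strand (TTTATA as printed), and 0 in the Ephb4 window. Of all windows 13.6% hold it. The RBPJ motif TGGGAA had 0 matches in either window, where 25.6% of all windows hold it.

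Other genes of arteries and veins, listed without the members, were read beside the pair. Of 19 tested arterial genes 0 passed by limma, and the median log2 fold change was -0.19. At an unadjusted limma p under 0.05, 1 was lower and 1 higher (4.78% of all tested genes had such a p in either direction). Without overlap between the groups, 6 were lower and 1 higher, where 16.8% of all tested genes were lower and 19.1% higher. Alpl, which encodes an alkaline phosphatase, stood at 136 and 127 FPKM in ECp53KO, against 75.2 and 84.1 FPKM in Ctrl. Fbln5, a protein of elastic fibres, stood at 13.2 and 17.3 against 23.9 and 22.7 FPKM, and Nrp1, a co-receptor of VEGF and the most abundant of the list, at 287 and 267 against 292.5 and 203 FPKM. Of 13 tested venous genes 0 passed by limma, and the median log2 fold change was -0.18. At an unadjusted limma p under 0.05, 2 were lower (2.82% of all tested genes were), and without overlap 4 were lower and 3 higher. Nr2f2, the transcription factor that sets venous identity, stood at 2.98 and 3.604 FPKM in ECp53KO, against 5.03 and 5.09 FPKM in Ctrl (limma adjusted p = 0.864). Cpe, a carboxypeptidase, stood at 24.1 and 21.2 against 35.4 and 34.0 FPKM, and Emcn, an endothelial sialomucin, at 762 and 619.5 against 534 and 469 FPKM.

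By class, ephrin-B ligands and EphB receptors held most of the family's transcript. Of the summed FPKM of the 10 members, ephrin-A ligands held 32.4% and 25.3% in ECp53KO, against 21.2% and 24.1% in Ctrl. Ephrin-B ligands held 32.6% and 34.5% in ECp53KO, against 36.7% and 39.7% in Ctrl. Neither class overlapped between the groups, ephrin-A being higher and ephrin-B lower in ECp53KO, by 6.20 and by -4.63 percentage points (exact permutation p = 0.333 for both, the smallest possible). The ephrin-A difference was 2.68 percentage points without ECp53KO_170 and 9.72 without ECp53KO_172. EphA receptors held 7.43% and 9.93% in ECp53KO against 10.6% and 9.58% in Ctrl (exact permutation p = 0.667), and EphB receptors 27.6% and 30.3% against 31.4% and 26.7% (exact permutation p = 1). Shares sum to a whole, so the classes are not independent. In FPKM, Efnb1 and Efnb2 each overlapped between the groups (log2 fold changes of -0.02 and -0.12). Efna1 made up nearly all of the ephrin-A class. The lower ephrin-B share is therefore not a separate result from the Efna1 difference. Among single genes, 35.9% of all tested ones did not overlap between the groups in either direction.

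**Figure D3:**
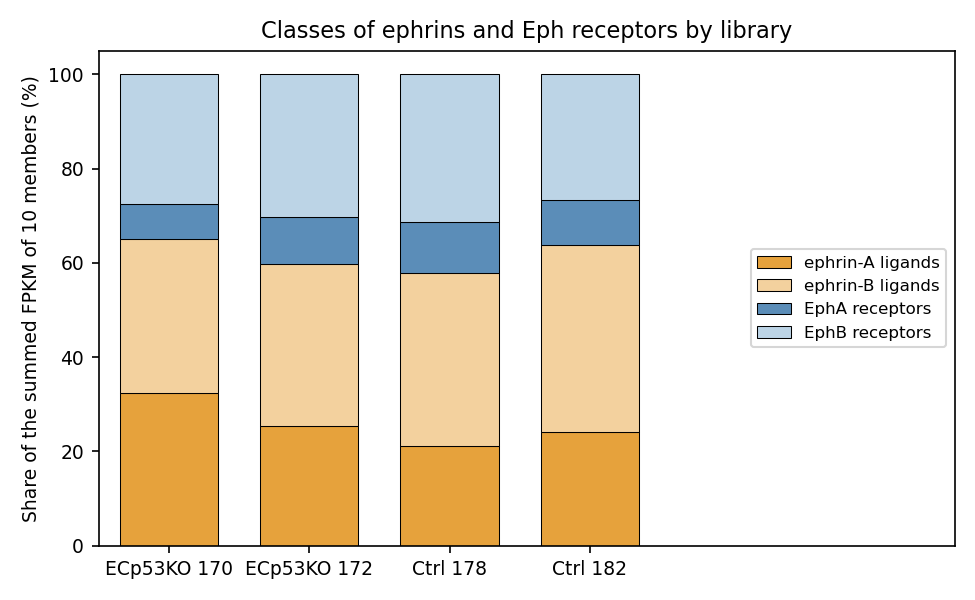
Share of the summed FPKM of the 10 members held by each class, 1 bar per library, with ECp53KO bars left of Ctrl bars. The ephrin-A share is highest in ECp53KO_170 (32.4%) and lowest in Ctrl_178 (21.2%).

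The summed level of the members was 495 and 512 FPKM in ECp53KO, against 448 and 476 FPKM in Ctrl. Ligand transcripts exceeded receptor transcripts in every library, by a ratio of 1.855 and 1.488 in ECp53KO and 1.38 and 1.76 in Ctrl, and the groups overlapped. The ratio of Efna1 to its receptor Epha2, chosen after the values were seen, was 6.74 and 4.23 in ECp53KO against 2.84 and 3.66 in Ctrl. Since Efna1 was higher and Epha2 lower without overlap, this ratio had to separate the groups and adds nothing to those 2 values. The ratio was widest apart between ECp53KO_170 and Ctrl_178.

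In the order of levels, Ephb4 was above Efna1 in 3 of 4 libraries, the exception being ECp53KO_170, and Efna1 above Efnb1 in 3 of 4, and the ranges of both pairs overlapped. Every later step, from Efnb1 to Efnb2, Epha2, Epha4 and Ephb1, was the same in all 4 libraries with no overlap of ranges.

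The other 12 ephrin and Eph genes of the mouse added little: the 10 members held 99.1% to 99.5% of the summed FPKM of all 22. None of the 12 reached a mean of 1 FPKM. Epha3, Epha5, Epha6 and Epha8 were listed at 0 in every library. The genes named next were chosen after their values were seen. Ephb6, whose kinase is inactive, was the highest, at 1.67 and 0.868 FPKM in ECp53KO against 0.954 and 0.383 FPKM in Ctrl. Efna4, which encodes ephrin-A4, was listed at 0 and 0.269 FPKM in ECp53KO against 1.28 and 0.771 FPKM in Ctrl, about 0 and 4.2 fragments against 22.5 and 27.9. In the fit with no filter Efna4 did not pass (limma adjusted p = 0.853, unadjusted p = 0.0117). It lies with Efna3 beside Efna1 on chromosome 3, with 32.9 kb between Efna1 and Efna3 and 10.5 kb between Efna3 and Efna4. Efna3 was at 0.956 and 0.275 FPKM in ECp53KO against 0.415 and 0.768 FPKM in Ctrl, so of the 3 neighbours Efna1 was the only abundant one in these libraries. Efnb3, which encodes ephrin-B3, lies 19.2 kb from Trp53 on chromosome 11 (69554092 to 69561150), and was at 0.162 and 0.248 FPKM in ECp53KO against 0.366 and 0.123 FPKM in Ctrl.

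Partners of the pathway, 36 adaptors, kinases, exchange factors, proteases and junction proteins that act with Eph receptors or ephrins, were all in the table, and 29 were tested. By limma 0 passed, and 0 had an unadjusted p under 0.05. Their median log2 fold change was -0.06, with 4 lower and 6 higher without overlap between the groups. Over all tested genes 16.8% were lower and 19.1% higher without overlap, so these counts among 29 are near the background. Cldn5, which encodes the tight junction protein claudin-5, is also on the endothelial marker list and was the most abundant, at 271 and 261 FPKM in ECp53KO against 311 and 440.0 FPKM in Ctrl (log2 fold change -0.48 ± 0.24, limma adjusted p = 0.864). Pard6a, a cell polarity protein, stood at 3.85 and 1.61 FPKM in ECp53KO against 4.46 and 5.79 FPKM in Ctrl, with the largest fold change of the list, -0.77 ± 0.35 (SE; limma adjusted p = 0.864).

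**Figure D4:**
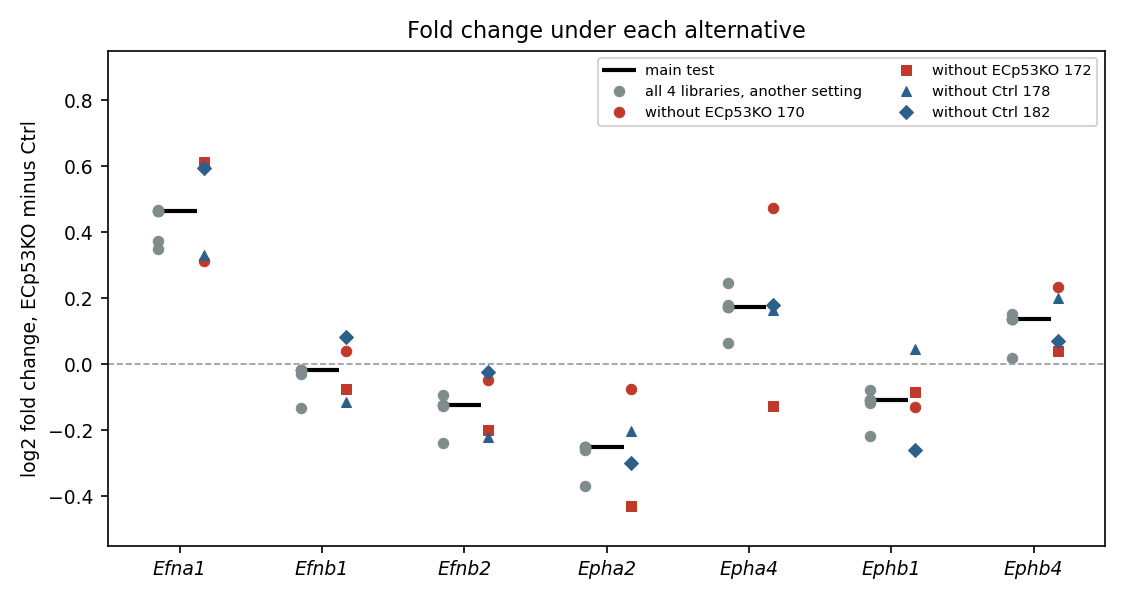
Log2 fold change of each tested member, ECp53KO minus Ctrl, in the main test (black bars), with another setting on all 4 libraries (grey) and without each library in turn (red and blue symbols, by the library left out). Efna1 stays between 0.31 and 0.61, while Efnb1, Epha4 and Ephb1 change sign when a library is left out.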

How the data were processed

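RNA of 4 libraries was measured, from polyadenylated, non-stranded paired-end libraries per the labels' protocols. The authors deposited 1 table of FPKM values per gene symbol. The submitters' processing notes name the build mm10 and, as tools, Cufflinks 2.2.1, TopHat2 2.1.0, Trimmomatic 0.36, FastQC 0.11.5 and bcl2fastq 2.17, without roles; no source read here names the annotation. As FPKM is no count, no count model was used. Depth was estimated from the commonest product of FPKM and transcript length in 1063 genes that GENCODE M21 gives a single transcript, over 2000 nucleotides long, and that stay under 0.5 FPKM throughout, taken as 1 fragment; fragments printed for a gene use its longest transcript.

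Values were analysed as log2(FPKM + 1), which understates the change of low genes, in 11332 genes whose mean reached 1 FPKM; 7 of the 10 members passed that filter. The test was limma 3.58.1 (R 4.3.3), two-sided, with the variance trended on level, Benjamini-Hochberg over all tested genes, threshold 0.05, no covariate. Intervals use 2 residual and 3.15 prior degrees of freedom. It was tested on simulated data. Positions and promoters are RefSeq's on GRCm38.p6 (mm10); all 10 members matched by symbol.

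Members and lists were chosen with earlier results of these data known. Named genes were the 10 members, Trp53, other family genes averaging 1 FPKM or more, and per list the most abundant gene and the 2 with the smallest limma p; other family genes, none of which reached that mean, were named after their values were seen. Lists are described by counts and medians, with no test. Of the erythroid list 7 of 8 genes were in the table; every other list was complete.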

Additional observations from a re-analysis of the deposited data

How the results depend on the processing

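No paired analysis was possible because no replicate number occurs in both groups. Under each of 10 alternatives (a pseudocount of 0.1, no filter, robust shrinkage, rescaling to TPM, no small RNA loci, length trend removed, and each library left out), 0 members were lower and 0 higher by limma at an adjusted p under 0.05. The smallest adjusted p was 0.309 (Efna1 without ECp53KO_172), and at most 0.999 was reached. Efna1 kept a positive fold change, 0.31 to 0.61 on the log2 scale, Ephb4 0.02 to 0.23, Efnb2 a negative one, -0.24 to -0.03, and Epha2 -0.43 to -0.07. Of 70 member values 4 changed sign, all on leaving out a library: Efnb1 ran from -0.12 to 0.08 (0.041 without ECp53KO_170, 0.082 without Ctrl_182), Epha4 from -0.13 to 0.47 and Ephb1 from -0.26 to 0.047. Rescaling to TPM shifted the median of all genes by -0.11; relative to its new median Efna1 was at 0.45, Epha2 at -0.27 and Ephb4 at 0.12. Left-out libraries gave -0.42 to -0.09 for Efnb2 minus Ephb4, and 2.68 to 9.72 (ephrin-A), -6.12 to -3.14 (ephrin-B), -2.69 to -0.18 (EphA) and -2.50 to 2.22 (EphB, 1.196 without ECp53KO_170 and 2.22 without Ctrl_178) percentage points for the class shares. Over all genes, 10 lower and 3 higher became 4 lower without small RNA loci, 5 higher with a pseudocount of 0.1 or robust shrinkage, 1 higher with no filter, and 12 to 53 lower and 1 to 21 higher on leaving out a library; the cause was not tested. A library left alone in its group was assumed to vary like the others. Depth limits Efna5, Ephb2 and Ephb3, which rest on few fragments. With 2 libraries a group, the 95% intervals reach about 0.4 to 0.6 log2 units either way, before adjustment over all genes. Smaller differences would go undetected, and larger ones could too. Eda2r, with a log2 fold change of -1.94, did not pass (limma adjusted p = 0.116).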
